A study of Mus musculus with 4 samples.

Results

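Resting fibroblasts of the uninjured hindlimb are described here gene by gene, with fibroblasts of the injured limb, chosen in the same way, as the reference. The members were 64 cells: 58 of the 184 cells kept in the slie/slie uninjured library (31.5%, exact 95% interval 24.9 to 38.8%) and 6 of the 60 kept in the control uninjured library (10.0%, 3.76 to 20.5%). The 4 libraries held 2581 deposited barcodes, of which 1241 passed the filter on genes and mitochondrial UMIs. Members were chosen by measured values in each cell. They needed 200 or more genes, with mitochondrial UMIs (unique molecular identifiers, 1 per captured transcript) making no more than 20%. Col1a1, Col1a2, Col3a1, Dcn and Gsn together made at least 1% of a member's UMIs, and it held fewer than 3 UMIs of each of 3 marker sums for immune (Ptprc, Tyrobp), endothelial (Pecam1, Cdh5) and mural cells (Rgs5, Myh11, Notch3). The same rule found 76 fibroblasts in the slie/slie injured and 202 in the control injured library.

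The mice carried either 2 copies of slie, a spontaneous loss-of-function allele of the collagen receptor gene Ddr2, or were littermate controls. All of them were burned on the back, over 30% of the body surface, and had the left Achilles tendon cut, and tissue was taken at day 7. The uninjured libraries came from hindlimbs of these burned mice, so they are not tissue of unburned animals. Each library pooled 2 mice and each group was 1 library, so no test between groups was possible. Intervals below cover counting error only, and genotype, limb, depth and library cannot be told apart beyond what a comparison holds fixed.

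Fibroblasts lay down and turn over the collagen matrix of muscle, tendon sheath, nerve and vessel wall. In resting tissue they are spindle-shaped, rarely divide, and include a population in the outer vessel wall, marked by Pi16, Dpp4 and Cd34, and others around small vessels and nerves. After injury they can proliferate, take on contractile proteins and secrete provisional matrix such as periostin and tenascin C.

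The libraries differed in depth, which bears on every value below. The 58 slie/slie uninjured fibroblasts had a median of 6994 UMIs and 2406 genes, the 6 control uninjured cells 882 UMIs and 426 genes. The injured references had medians of 795 UMIs (slie/slie) and 1857 (control). In the slie/slie injured library 3 cells, of 76827, 74520 and 18685 UMIs, held 53.1% of all fibroblast UMIs, against 12.9% in the 3 deepest slie/slie uninjured cells. Of the slie/slie injured fibroblasts 40 had under 0.5% mitochondrial UMIs, of the control injured ones 47, and of either uninjured library none. The control injured cells are therefore given beside the slie/slie injured ones, and the 6 control uninjured cells by value only. Where 4 values of a gene follow each other, their order is slie/slie uninjured, control uninjured, slie/slie injured, control injured. In that order the summed fibroblasts held 435154, 16907, 320421 and 1261835 UMIs. UMIs of a gene are therefore not comparable between libraries without scaling. Where a pair of ratios or medians is given, the slie/slie injured cells are the reference of the former and the control injured cells of the latter. Libraries shared no fibroblast barcode, and no doublet was called among the 58 cells, but 2 of the 6 control uninjured cells were called.

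Ddr2 was counted first as a check of the labels. Its UMIs in fibroblasts were 0 in both slie/slie libraries, 0 in the control uninjured and 73 in the control injured library. The last is 57.9 CPM (UMIs of a gene per 1000000 UMIs, 45.3 to 72.7). The 6 control uninjured cells were too shallow to check this label, because 0 UMIs there allowed a level of up to 177 CPM. Over all deposited barcodes Ddr2 had 5 UMIs in the control uninjured library (8.62 CPM, 2.80 to 20.1), 2 in the slie/slie uninjured (1.30 CPM, 0.157 to 4.69), 0 in the slie/slie injured and 116 in the control injured library (25.7 CPM).

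The label was then checked against its 6 markers, Gsn, Clec3b, Dcn, Pdgfra, C7 and Dpt. At least 3 of them were found in 54 of the 58 slie/slie uninjured cells, and all 6 in 27. In the control uninjured library 2 of 6 cells held at least 3, so the label rests on the slie/slie library. Among injured fibroblasts 14 of 76 slie/slie and 71 of 202 control cells held at least 3 markers. Dcn and Gsn were also part of the rule that chose the cells, so these counts are in part set by it, and the libraries differed in depth. Of the 4 markers outside the rule, at least 2 were found in 45 of the 48 slie/slie uninjured cells with 2000 or more UMIs and in 1 of the 2 such control uninjured cells. Among injured cells of that depth, 10 of 23 slie/slie and 50 of 97 control cells held at least 2. The share of UMIs in the 5 rule genes was 1.37, 1.58 and 1.59% in the members just inside the limit, and 0.986, 0.548 and 0.503% in the cells just outside it.

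**Figure D1:**
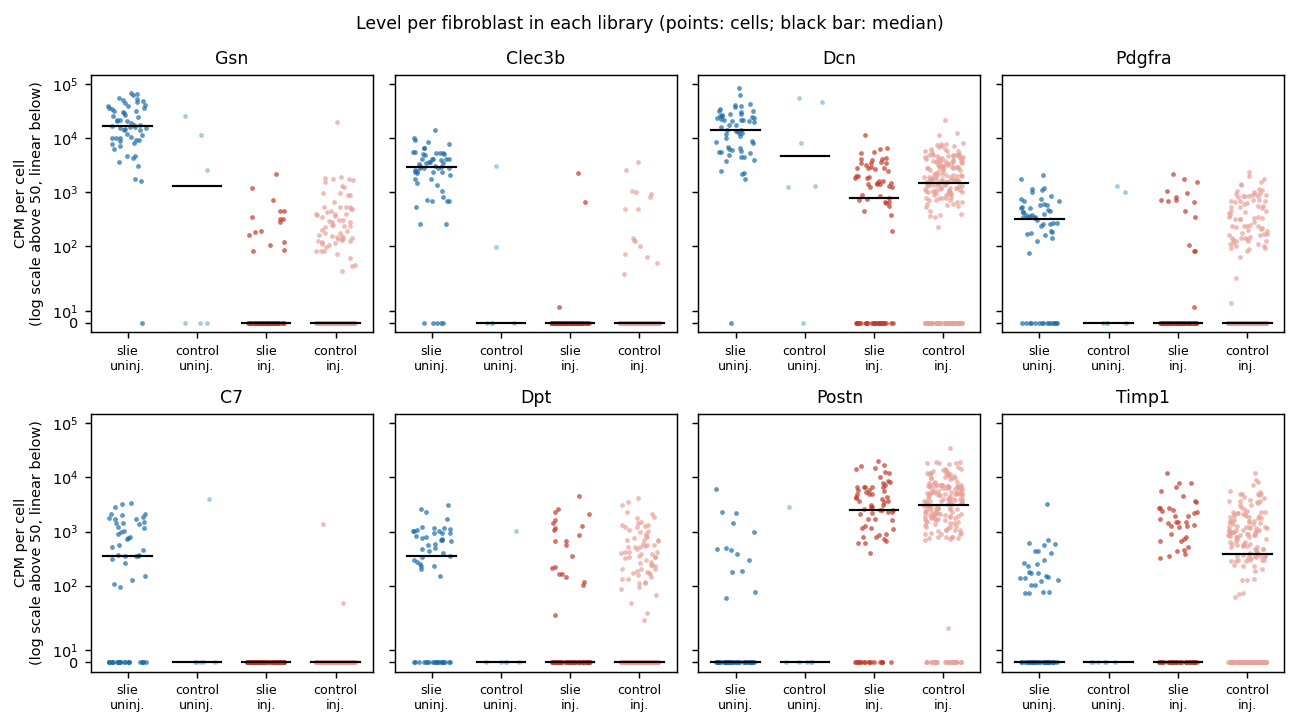
CPM per cell (vertical axis, logarithmic above 50 and linear below) of the 6 label markers and of Postn and Timp1 in each library, 1 point per fibroblast, with a black bar at the median. Most of the 58 slie/slie uninjured cells lie above most of the injured cells for Gsn, Clec3b and Dcn, though the highest control injured cells exceed the uninjured medians. Most of the 58 lie at 0 for Postn, and Pdgfra and Dpt overlap between libraries.

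Gsn (chr2:35256380-35307892 in mm10, plus strand) encodes gelsolin, which severs actin filaments. It had 11342 UMIs in the slie/slie and 145 in the control uninjured fibroblasts, against 58 in slie/slie and 700 in control injured ones. These are 26064, 8576, 181 and 555 CPM. The slie/slie uninjured level was 142-fold (111 to 190) that of the slie/slie and 46.9-fold (43.5 to 50.8) that of the control injured cells. Gsn is a rule gene, so its values are a description of the chosen cells. Folds here and below have 1 count added to each sum, which matters most at low counts, and their intervals are of the ratio without it.

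The difference was also present among cells of like depth. With at least 2000 UMIs, 48 slie/slie uninjured cells had a median Gsn level of 19636 CPM, 23 slie/slie injured cells 86.8 CPM and 97 control injured cells 47.6 CPM. The lower quartile of the uninjured cells, 9938 CPM, was reached by 0 of the 23 and by 1 of the 97 injured cells. That control injured cell, of 26775 UMIs, held 530 of the 700 Gsn UMIs, 69 of the 130 Clec3b UMIs and 37 of the 38 C7 UMIs of its library. Without it, an alternative chosen after seeing the data, the log2 ratios over control injured cells were 7.56 for Gsn (5.55 with it), 6.28 for Clec3b (5.23) and 9.03 for C7 (4.77). Gsn UMIs were seen in 98.3% of the 58 cells and in 33.3% of 33 endothelial cells of the same library, whose median depth was 4446 UMIs. Thinned to 500 UMIs per cell, the shares were 96.6% and 6.06%. The endothelial cells passed the same filter and had at least 3 UMIs of Pecam1 and Cdh5. They held fewer than 3 UMIs of the immune and of the mural sum, and under 1% of UMIs in the rule genes. Their Gsn share was thus in part set by that choice and cannot measure free Gsn RNA.

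Clec3b (chr9:123150946-123157432, plus strand) encodes tetranectin, a secreted plasminogen-binding lectin, and was not part of the rule. Its UMIs numbered 1700 and 4 in the slie/slie and control uninjured cells and 9 and 130 in the slie/slie and control injured cells, or 3907, 237, 28.1 and 103 CPM. The slie/slie uninjured level stood 125-fold (73.1 to 305) above the slie/slie injured and 37.7-fold (31.7 to 45.7) above the control injured level. Clec3b was seen in 53 of 58 cells (91.4%; 67.2% when thinned), in 3 of 76 and 16 of 202 injured fibroblasts, and in 15.2% of the endothelial cells (3.03% when thinned).

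C7 (chr15:4988762-5063740, minus strand), a component of the terminal complement complex, had 367, 4, 0 and 38 UMIs in slie/slie uninjured, control uninjured, slie/slie injured and control injured cells. Against a floor of 3 counts in the summed slie/slie injured library it was at least 90.1-fold higher in the slie/slie uninjured cells. Its level there, 843 CPM, was 27.4-fold (20.0 to 40.2) that of the control injured cells. C7 was seen in 36 of 58 cells (62.1%; 27.6% when thinned) and in 0 of 33 endothelial cells, which allows a share of up to 9.09%.

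Dcn, the collagen-binding proteoglycan decorin, stood at 20652 and 31939 CPM in the uninjured (slie/slie, control) and 1823 and 3201 in the injured cells, again a description of a rule gene. Dpt, the matrix protein dermatopontin, had 265, 1, 52 and 289 UMIs (609, 59.1, 162 and 229 CPM), 3.70-fold (2.78 to 5.15) and 2.66-fold (2.24 to 3.15) higher in slie/slie uninjured than in the slie/slie and control injured cells. The control uninjured level of Dpt rested on 1 UMI.

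Pdgfra, the platelet-derived growth factor receptor used as a general fibroblast marker, differed least. Its levels were 368, 828, 156 and 200 CPM in the same order, and the ratios of the slie/slie uninjured cells were 2.32 (1.71 to 3.31) and 1.85 (1.5 to 2.25). With the rule tightened to 5% of UMIs the log2 ratio over slie/slie injured cells was -0.35, so the direction of Pdgfra depended on the limit. Without the 3 deepest cells of each library it was 0.40.

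Across all genes with 20 or more UMIs over the 2 sums compared, 1471 of 4860 (30.3%) differed by 2-fold or more between slie/slie uninjured and slie/slie injured fibroblasts. Of these 728 (15%) were higher and 743 (15.3%) lower in the uninjured cells. Against control injured fibroblasts, where genotype differs too, 2362 of 7934 (29.8%) differed, 917 (11.6%) higher and 1445 (18.2%) lower. Of 4853 genes measured in both comparisons, 520 (10.7%) were higher in each and 463 (9.54%) lower in each. These comparisons share the slie/slie uninjured cells. The median log2 ratio over all genes was -0.07 and -0.15.

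Genes were ranked by the counting bound nearest no change, leaving out rule genes such as Gsn and genes listed for other cell types. The 15 ranked genes furthest above both injured references were Myoc, Inmt, Angptl7, Clec3b, Igfbp6, Fmo2, Gdf10, Apoe, C7, Arhgap20, Vit, Apod, Gpc3, Sfrp5 and Ly6c1. Myoc (chr1:162639155-162649693, plus strand), encoding the secreted glycoprotein myocilin, had 361 and 3 UMIs in the uninjured (slie/slie, control) and 0 and 4 in the injured cells. It was at least 88.6-fold higher than in slie/slie injured and 210-fold (101 to 966) higher than in control injured cells. Inmt (chr6:55170626-55175043, minus strand), an N-methyltransferase of indoleamines, had 185, 0, 0 and 1 UMIs, at least 45.4-fold higher than in slie/slie injured cells. Igfbp6, a secreted binding protein of insulin-like growth factors, stood at 3861, 532, 78.0 and 120 CPM. Apod, a secreted lipid carrier, stood at 3174, 29869, 46.8 and 156 CPM. Of the 505 Apod UMIs in control uninjured cells, 496 came from 1 cell of 10162 UMIs.

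Of these genes Ly6c1, Apoe and Fmo2 were also counted in the endothelial cells of the slie/slie uninjured library. Ly6c1, a surface protein of endothelial and progenitor-type cells, stood at 4163 CPM in the 33 endothelial cells and at 1278 CPM in the 58 fibroblasts. Apoe, an apolipoprotein, stood at 1023 and 1896 CPM. Fmo2, a flavin-containing monooxygenase, stood at 184 CPM in the endothelial cells and 276 CPM in the fibroblasts. It was seen in 13 of 33 endothelial cells (39.4%; 9.09% when thinned) and in 20 of 58 fibroblasts (34.5%; 10.3% when thinned). The part of free RNA in these differences was not tested.

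The 15 ranked genes furthest below both references were Cxcl5, Ddah1, Lrrc15, Saa3, Fbn2, H19, Crabp1, Col11a1, Tnn, C1qtnf3, Cthrc1, Top2a, Postn, Tagln and Adam12. Tnc, given below, was left out of this ranking as a gene of the tendon list. Cxcl5 (chr5:90759360-90761624, plus strand), a chemokine that draws neutrophils, had 0 and 5 UMIs in the uninjured (slie/slie, control) and 266 and 1302 in the injured cells. It was at least 120-fold and 150-fold lower in slie/slie uninjured than in the 2 injured libraries. Lrrc15 (chr16:30269302-30283256, minus strand), a membrane protein of activated fibroblasts, had 0, 0, 76 and 292 UMIs, at least 34.4-fold and 33.6-fold lower. Postn (chr3:54361109-54391037, plus strand), encoding the matricellular protein periostin, stood at 223, 651, 3664 and 4121 CPM, 16.3-fold (13.4 to 20.4) and 18.3-fold (15.1 to 22.8) lower in slie/slie uninjured cells. Without the 3 deepest cells of each library the log2 ratios over slie/slie injured cells were 8.21 for Gsn (7.15 with them), 5.99 for Clec3b (6.97) and -5.52 for Postn (-4.03).

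The control uninjured cells did not follow this side throughout. H19, an imprinted non-coding RNA, stood at 23.0 and 1479 CPM in the uninjured (slie/slie, control) and 1061 and 1087 in the injured cells. Col11a1 stood at 11.5, 1242, 518 and 1062 CPM in the same order. For H19 and Col11a1 the summed level of the 6 control uninjured cells lay at or above the injured level. It rested on 25 H19 UMIs in 2 of the 6 cells and 21 Col11a1 UMIs in 3 of them. Fbn2 stood at 0, 532, 225 and 321 CPM, and its 9 control uninjured UMIs came from 1 cell.

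**Figure D2:**
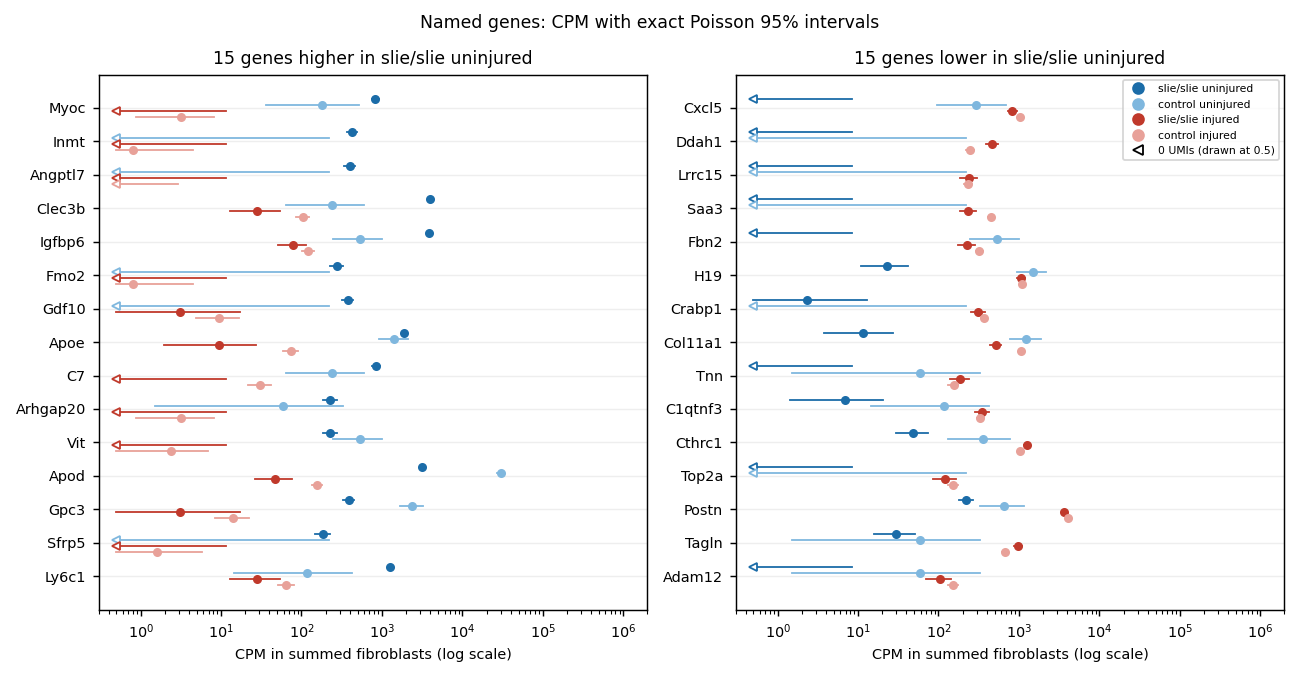
CPM in the summed fibroblasts of each library (horizontal axis, logarithmic) for the 15 ranked genes furthest above and the 15 furthest below both injured references, with exact Poisson 95% intervals and open triangles for 0 UMIs, drawn at 0.5. Rule genes and genes listed for other cell types were not ranked. The slie/slie uninjured points lie apart from both injured points in every row, while the control uninjured intervals are wide and lie near the injured points for H19, Col11a1 and Fbn2.

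Promoter sequences are shown for the 2 highest-ranked genes above the references and for the highest-ranked gene below them in whose promoter any of 7 searched motifs was found, to set the start regions beside the expression values. Each is the 250 bases before a gene's start in RefSeq's GRCm38.p6 table, written 5′ to 3′ on the gene's strand with motifs in capitals. The capitals mark the TATA box TATAAA in both Myoc and Inmt, the CCAAT box read on the other strand in Myoc, and in Lrrc15 the GC box GGGCGG read on the other strand and the AP-1 site TGANTCA.
Myoc (chr1:162638900-162639149, plus strand): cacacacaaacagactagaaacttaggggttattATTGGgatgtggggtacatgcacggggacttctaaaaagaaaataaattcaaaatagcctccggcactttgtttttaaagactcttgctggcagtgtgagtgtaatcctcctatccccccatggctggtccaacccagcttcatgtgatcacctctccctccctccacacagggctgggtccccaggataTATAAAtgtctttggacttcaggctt
Inmt (chr6:55174991-55175240, minus strand): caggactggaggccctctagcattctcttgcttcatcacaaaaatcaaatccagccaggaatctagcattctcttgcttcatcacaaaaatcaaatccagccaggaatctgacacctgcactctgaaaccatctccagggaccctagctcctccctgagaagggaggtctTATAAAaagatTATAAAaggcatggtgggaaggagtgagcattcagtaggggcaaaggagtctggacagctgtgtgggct
Lrrc15 (chr16:30283255-30283504, minus strand): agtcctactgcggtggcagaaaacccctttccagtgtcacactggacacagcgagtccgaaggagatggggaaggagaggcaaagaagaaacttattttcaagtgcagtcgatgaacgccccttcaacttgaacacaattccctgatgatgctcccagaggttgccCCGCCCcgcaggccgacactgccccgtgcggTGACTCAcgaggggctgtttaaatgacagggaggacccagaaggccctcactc

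Over all genes, the AP-1 letters TGANTCA, searched on both strands, were in 8.91% of 494 promoters of the genes higher over both references and in 4.79% of 438 promoters of the genes lower. They were in 4.20% of the 4759 promoters of measured genes and in 6.75% of all 32841 promoters. The TATA letters were in 9.92, 8.68, 6.70 and 12.4% of the same sets, and the GC box in 53.0, 66.9, 60.9 and 32.7%. The Fox letters GTAAACA were in 3.64, 0.913, 2.00 and 3.17%. The TEAD letters GGAATG were in 10.9, 11.9, 10.5 and 12.6%, CCAAT in 32.2, 37.0, 34.2 and 33.9%, and the CArG box in 2.02, 3.42, 1.34 and 1.47%. These are shares of promoters that hold the letters, and no test of binding was made.

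Among all measured genes, 15% were higher and 15.3% lower over slie/slie injured cells, and 11.6% and 18.2% over control injured cells. The list counts below stand beside these shares, and a count near them is no result about its list. By role, genes of the adventitial progenitor type were higher in the slie/slie uninjured cells. Of 10 measured members, 9 were at least 2-fold higher over slie/slie injured cells and none lower, with a median log2 ratio of 3.11 (2.86 with genes at 0 set to their bound). Over control injured cells 9 of 10 were higher, median 2.63. Cd34, a sialomucin of stromal and endothelial progenitors, stood at 871 and 1006 CPM in the uninjured (slie/slie, control) and 99.9 and 62.6 in the injured cells. Its 17 UMIs in control uninjured cells came from 1 cell, and it was also seen in 19 of the 33 endothelial cells (57.6%; 18.2% when thinned, against 25.9% of the 58 fibroblasts). Pi16, a peptidase inhibitor that marks adventitial fibroblasts, stood at 462, 59.1, 56.2 and 41.2 CPM. Cd248 was the exception, with log2 ratios of 0.67 and 0.09.

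Genes of perivascular and interstitial fibroblasts showed the same side. Of 16 measured, 13 were higher and 1 lower over slie/slie injured cells, median 3.27, and of 17 over control injured cells 14 were higher and 1 lower, median 2.70. Ccl11, the eosinophil chemokine eotaxin, stood at 487, 1124, 28.1 and 27.7 CPM, and the 19 UMIs in control uninjured cells came from 1 cell. Lpl, lipoprotein lipase, stood at 951, 296, 65.5 and 146 CPM. The lower gene was Sox9, a transcription factor of cartilage and tendon precursors, at 6 UMIs against 36 and 137. Cxcl12, a chemokine of stromal niches, was within 2-fold of both references.

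Among the 24 role lists, complement genes had the highest median over slie/slie injured cells. All 12 measured members were at least 2-fold higher, median 3.92 (3.54 at bounds), and 11 of 13 over control injured cells, median 1.73. They cover the classical pathway (C1ra, C1s1, C2), the central component C3 and the regulator Serping1. Serping1, the inhibitor of C1 proteases, stood at 2282 and 1183 CPM in the uninjured (slie/slie, control) and 225 and 395 in the injured cells. C3 stood at 483, 237, 21.8 and 166 CPM, 19.4-fold (10.5 to 55.6) over slie/slie and 2.91-fold (2.39 to 3.55) over control injured cells. Cfd, factor D, is also an adipocyte gene. It had 154, 5, 0 and 16 UMIs. In the endothelial cells of the slie/slie uninjured library it stood at 276 CPM in 14 of 33 cells, and thinned it was seen in 18.2% of these and in 19.0% of the 58 fibroblasts. The adipocyte list, which holds Cfd, summed to 526, 651, 0 and 19.0 CPM, with 4 of its 9 members at 0 in the 58 cells. The part of free or adipocyte RNA in the Cfd difference was not tested.

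Fibrillar collagens were lower or near the injured level in the slie/slie uninjured cells, summing to 26616, 87242, 46489 and 60522 CPM in the 4 libraries. No fibrillar collagen was 2-fold higher, and 4 of 8 were lower over slie/slie and 6 of 8 over control injured cells, with medians of -0.96 and -1.44. Col1a1, Col1a2 and Col3a1 belong to the rule and are given as description. Col1a1 stood at 11761 and 37440 CPM in the uninjured (slie/slie, control) and 24165 and 27382 in the injured cells. Col3a1 had a ratio of 0.970 (0.920 to 1.02) over slie/slie injured cells. Outside the rule, Col12a1, a collagen on the fibril surface of tendon, was 41.6-fold (24.5 to 96.0) and 54.6-fold (32.6 to 125) lower. The related list of interstitial collagens had 3 of 7 and 5 of 9 genes lower, medians -0.83 and -1.40, and 1 gene, Col6a6, higher over control injured cells. Col15a1, a collagen next to basement membranes, was higher, at 193, 1420, 12.5 and 27.7 CPM, and its 24 UMIs in control uninjured cells came from 1 cell.

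Enzymes that fold and cross-link collagen were lower for 12 of 23 members over slie/slie and 11 of 23 over control injured cells, with medians of -1.04 and -0.92. Lox, the lysyl oxidase, stood at 101, 414, 843 and 888 CPM. Pcolce2, an enhancer of procollagen cleavage, was the only member at least 2-fold higher in either comparison, with log2 ratios of 3.31 and 4.23. Of the 3 genes for prolyl 4-hydroxylase subunits P4ha1, P4ha2 and P4ha3, the first 2 were within 2-fold and the last had 0 UMIs against 20 and 77.

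Small leucine-rich proteoglycans split within the family. Of 11 measured over slie/slie injured cells 6 were higher and 4 lower, and of 10 over control injured cells 6 were higher and 3 lower, medians 1.59 and 1.35. Besides Dcn, the higher members were Ogn, Prelp, Omd, Podn and Ecm2, and the members lower in both comparisons were Bgn, Fmod and Aspn. Bgn, biglycan, stood at 855, 887, 2656 and 2771 CPM. Lum, lumican, was within 2-fold of both references. When cells were thinned to 500 UMIs the medians were 0.16 over slie/slie and -0.16 over control injured cells.

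Basement membrane genes were higher for 9 and lower for 2 of 16 over slie/slie injured cells, median 1.26, and 6 higher and 6 lower of 17 over control injured cells, median 0.53. Lama2, the laminin chain of muscle basement membrane, had log2 ratios of 3.26 and 3.56, and Lamb2 2.04 and 2.18. Lamb1 was lower, at -1.56 and -2.18. Sparc, a collagen-binding protein, differed by less than 2-fold, at 11959, 8162, 10152 and 9283 CPM.

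Elastic fibre and microfibril genes were mixed, with 4 higher and 9 lower of 18 over slie/slie injured cells (median -1.0) and 5 higher and 10 lower of 21 over control injured cells (median -0.51). Ltbp4, a binding protein of latent TGF-beta that takes part in elastic fibre assembly, stood at 188, 59.1, 6.24 and 8.72 CPM. Eln, elastin, had log2 ratios of 1.64 and 1.57. Fbn2, a fibrillin of developing and regenerating tissue, had 0, 9, 72 and 405 UMIs, or 0, 532, 225 and 321 CPM. Ltbp2 had 1, 5, 55 and 164 UMIs, the 5 of them from a control uninjured sum of only 16907 UMIs.

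Genes of activated fibroblasts were lower. Of 21 measured, 18 were at least 2-fold lower over slie/slie and 17 over control injured cells, none was higher, and the medians were -3.46 and -3.58. Acta2, smooth muscle actin, had 10 and 0 UMIs in the uninjured (slie/slie, control) and 415 and 1513 in the injured cells. Tnc, tenascin C, had 1, 7, 415 and 1343 UMIs, and the 95% intervals of its ratios ran from 101 to 22314-fold and from 83.0 to 18307-fold lower. Timp1, a metalloproteinase inhibitor, stood at 142, 0, 2016 and 1726 CPM. Fap, fibroblast activation protein, had log2 ratios of 0.17 and 0.33, and with Sparc and Cilp it was within 2-fold of both references.

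Postn was not spread evenly over the 58 cells. It was seen in 14 of them (24.1%), against 77.6% and 85.1% of slie/slie and control injured fibroblasts. When thinned, the shares were 6.90%, 65.4% and 71.3% in the same order. The 3 leading cells held 70.1% of its UMIs.

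Cell cycle genes were lower for all 11 measured over slie/slie and 19 of 20 over control injured cells, none higher, with medians of -4.58 and -3.82 (-3.66 and -3.10 at bounds). Of the 21 listed genes, 12 had 0 UMIs in the 58 cells. Such a gene reached the minimum of 20 UMIs through the injured cells alone and could only be called lower. Over 19 alternatives the medians ranged from -5.04 to -1.45 and from -5.23 to -1.27. Top2a, a topoisomerase of dividing cells, had 0, 0, 39 and 191 UMIs. A cell with at least 3 UMIs of Mki67, Top2a, Cdk1, Ccnb1 and Ccna2 was counted as cycling. There were 0 of 58 among slie/slie uninjured cells, which allows a share of up to 5.17%, and 1 of 6 among control uninjured cells. Injured fibroblasts had 8 of 76 (10.5%, slie/slie) and 25 of 202 (12.4%, control). Median depths were 795 and 1857 UMIs in slie/slie and control injured cells and 6994 in the 58 uninjured cells. The deepest cell of each held 76827, 70055 and 22666 UMIs in the same order. The part of depth in the cycling counts was not tested.

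Growth arrest genes were higher for 12 of 17, none lower, over slie/slie injured cells, median 1.85, but for 8 of 19 with 1 lower over control injured cells, median 0.58. Tsc22d3, a glucocorticoid-induced regulator, stood at 228, 237, 21.8 and 15.8 CPM, and the control uninjured level was 4 UMIs of 1 cell. Cdkn1c, an inhibitor of cyclin-dependent kinases, stood at 234, 0, 62.4 and 76.9 CPM. Klf4, a transcription factor, was 11.6-fold (5.39 to 54.0) and 4.32-fold (3.02 to 6.30) higher. Immediate early genes were mixed, with 2 higher and 2 lower of 9, and 1 higher and 6 lower of 15. Fos, an early response transcription factor, had 9, 1, 0 and 117 UMIs.

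Glycolysis genes were lower for 8 of 12 over slie/slie and 8 of 18 over control injured cells, 1 higher in each, with medians of -1.49 and -0.69. Gapdh stood at 469, 473, 1585 and 1280 CPM. Its ratio was 3.37-fold lower (2.87 to 4.0) and 2.72-fold lower (2.36 to 3.17). Cytosolic ribosomal protein genes stayed within 2-fold for 28 of 28 over slie/slie injured cells, median -0.22. Over control injured cells 27 of 28 did, median 0.18.

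Among secreted signals, Wnt inhibitors went to both sides. Of the list, 4 were higher and 3 lower of 8 over slie/slie, and 4 higher and 4 lower of 9 over control injured cells, medians 0.36 and -0.24. Sfrp4 stood at 333, 59.1, 12.5 and 17.4 CPM, and Dkk2 at 205, 0, 3.12 and 26.2 CPM. Sfrp1, of the same family of secreted frizzled-like inhibitors, was lower, with log2 ratios of -1.78 and -1.92. In the BMP and TGF-beta list 5 of 12 and 4 of 15 were higher and 3 in each lower, medians -0.21 and -0.34. Among all measured genes 15.3% and 18.2% were lower, so the lower counts are not read as a result about this list. Id3, a target of BMP signalling, stood at 627, 237, 159 and 204 CPM, while Tgfb1 and Tgfb3 were lower in both comparisons.

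For insulin-like growth factor genes 3 of 7 and 2 of 8 were higher, medians 0.90 and -0.01, beside 15% and 11.6% higher among all measured genes. Igf1, the growth factor itself, had log2 ratios of 1.45 over slie/slie and 0.34 over control injured cells. Collagen-binding receptors had 1 of 3 lower over slie/slie and 6 of 6 over control injured cells, medians -0.94 and -1.91. That list includes Ddr2, which had no UMI in the slie/slie cells. Cd44, which also binds hyaluronan, had 7, 2, 30 and 123 UMIs, the 2 of them from a control uninjured sum of only 16907 UMIs.

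The inflammatory list had 3 of 11 higher and 4 lower over slie/slie, and 3 of 16 higher and 7 lower over control injured cells, medians -0.18 and -0.85. Ccl19, a chemokine for lymphocytes and dendritic cells, had 91, 0, 3 and 4 UMIs. Spp1, osteopontin, had 39, 8, 395 and 1368. Il1rl1, the receptor of IL-33, had 0 UMIs in both uninjured libraries against 48 and 119. Proteases and inhibitors were mixed, with 4 higher and 4 lower of 15, and 4 higher and 7 lower of 18, medians -0.23 and -0.57. Timp2 and Timp1 lay on opposite sides, with log2 ratios of 1.33 and 1.13 for Timp2 and -3.80 and -3.58 for Timp1.

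Lipid handling genes were higher for 6 of 13 and lower for 1 over slie/slie, and 6 and 3 of 14 over control injured cells, medians 0.70 and 0.30. The former median ranged from 0.69 to 3.84 over 19 alternatives, with 12 of them past 2-fold. Abca8a, a lipid transporter, had 74, 11, 0 and 9 UMIs. Antioxidant genes were higher for 5 of 15 and 6 of 17 and lower for 3 and 4, medians 0.38 and 0.56. The lower counts were near the shares among all measured genes (15.3% and 18.2%). Gstm1, a glutathione transferase, had 109, 1, 5 and 16 UMIs, and Txnip, an inhibitor of thioredoxin, 139, 0, 12 and 51. Hyaluronan genes were higher for 1 gene, Itih5, in both comparisons. They were lower for 3 of 6 and 8 of 10, medians -1.03 and -2.55. Has2, the main hyaluronan synthase of fibroblasts, had 31, 5, 61 and 651 UMIs.

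**Figure D3:**
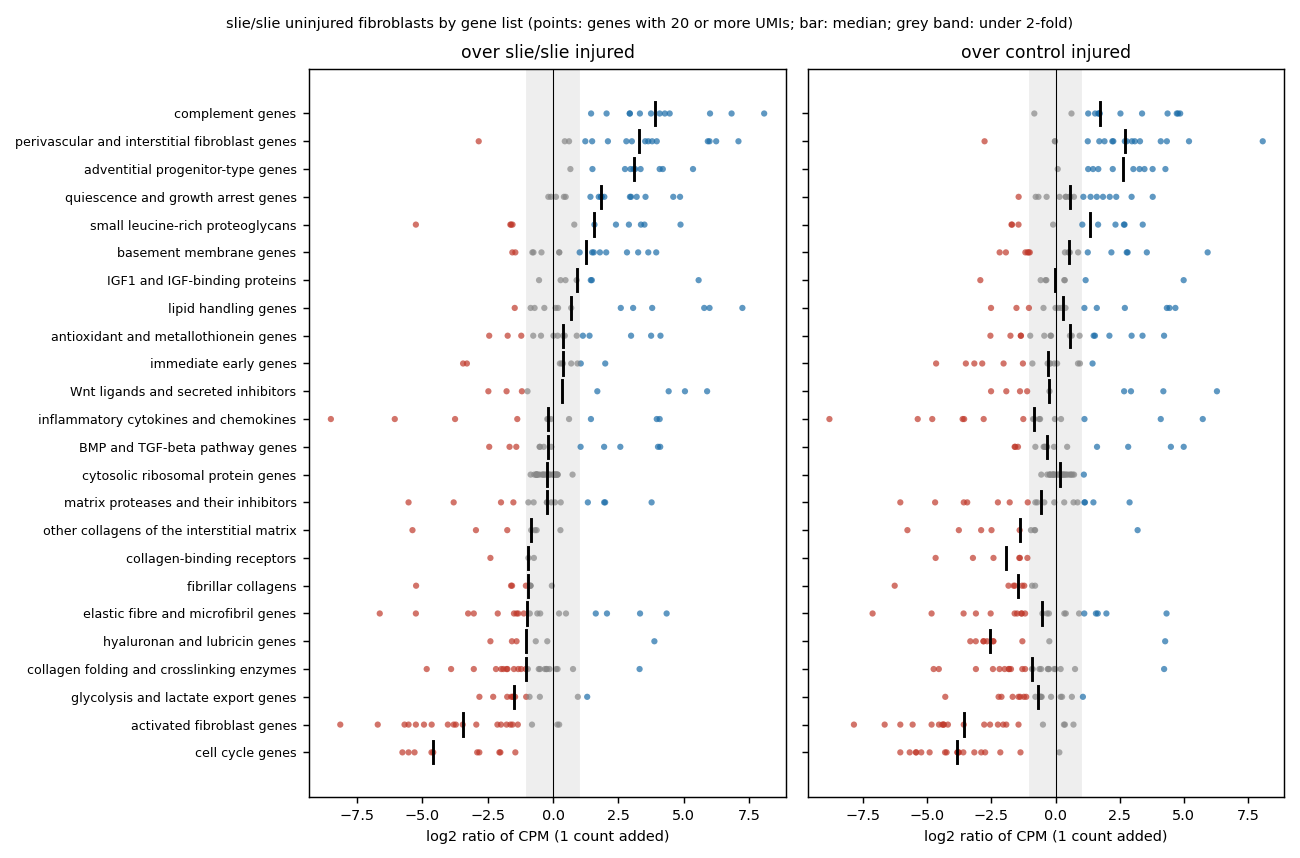
Log2 ratio of CPM (horizontal axis, 1 count added) of slie/slie uninjured over slie/slie injured (left) and control injured fibroblasts (right) for 24 gene lists, 1 point per gene with at least 20 UMIs, blue at least 2-fold higher and red at least 2-fold lower, with a bar at the list median. Complement, perivascular and adventitial lists lie to the right and activated and cell cycle lists to the left in both panels.

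Genes of other cell types were counted in the same sums. Myofibre genes summed to 680, 118, 378 and 347 CPM in the 4 libraries. Acta1, skeletal muscle actin, had 51 UMIs in the 58 cells against 0 and 3 in the injured references, at 117 CPM beside 81.8 CPM in the endothelial cells of that library. Schwann and glial genes summed to 600, 1006, 175 and 201 CPM, with 1 UMI of Sox10 in the 58 cells. Perineurial genes summed to 563, 355, 222 and 228 CPM. Tendon genes summed to 643, 2898, 3567 and 3265 CPM, with Scx and Mkx at 0 UMIs in the 58 cells, Tnmd at 85 UMIs in 11 cells and Comp at 107 in 19 cells. Of the tendon list 2 of 9 measured genes were higher and 6 lower over slie/slie, and 1 of 8 higher and 5 lower over control injured cells. Endothelial genes summed to 460, 591, 59.3 and 203 CPM, of which Fabp4 gave 181 of the UMIs in slie/slie uninjured cells while Pecam1, Cldn5 and Vwf were at 0. Adipocyte genes, given above beside Cfd, were higher in the slie/slie uninjured than in the injured sums. Macrophage genes summed to 142, 296, 31.2 and 70.5 CPM, and T and NK, B and mast cell genes to under 20 CPM in each library. The part of these genes in the differences above was not tested.

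Within the 58 cells some genes were broad and others rested on few cells. Of 1256 genes with at least 50 UMIs, the median gene had 21.2% of its UMIs in its 3 leading cells, and 28 genes had at least 50%. Gsn was broad, with 19.4% in 3 cells and a quartile range of 9434 to 33894 CPM. Pi16 was seen in 28 cells, Ccl11 in 30, and both in 15 cells. Cells with Pi16 were deeper, with a median of 8960 UMIs against 5746 in those without, so detection and depth moved together. The marker Dpp4 was seen in 6 cells, 5 of them with Pi16. Across the 58 cells, which share 1 library, the CPM of C7 and Gdf10 had a Spearman rho of 0.51 and that of Pi16 and Ccl11 -0.09, as a description. The former was the highest of the pairs computed. C7 also moved with depth (rho 0.39), with a median of 8274.5 UMIs in cells with C7 and 3733 in those without.

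Angptl7, ranked 3 among the genes above the references, was concentrated. It had 172 UMIs in 11 cells and 0 in the other 3 libraries, and 3 cells held 80.2% of them. The 2 leading cells, with 73 and 42 Angptl7 UMIs, also held 22 and 27 UMIs of Comp, 23 and 33 of Aspn and 20 and 24 of Myoc, and none of Scx. Comp, a cartilage and tendon matrix protein, and Angptl7 were both seen in 8 cells. Inmt had 61.1% of its UMIs in 3 cells and was seen in 22.

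Sfrp5 rested on 1 cell. Of its 80 UMIs 74 came from a cell of 16380 UMIs, which also held 56 of 61 Lypd2 UMIs, 516 of 1680 Igfbp6 UMIs and 16 UMIs of Itgb4, and no C7 or Dpt. Igfbp6 itself was seen in 52 of 58 cells, and 3 cells held 51.4% of its UMIs. With the rule tightened to 5% of UMIs the cell dropped out, and the Sfrp5 ratio over slie/slie injured cells, log2 5.90, became -0.28. The slie/slie injured cells held 0 Sfrp5 UMIs, so that negative value comes from the added count and not from a higher injured level.

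Ccl2 and Ccl7, chemokines for monocytes, rested on 1 other cell. That cell, of 7838 UMIs, held 92 of 103 Ccl2 UMIs, 90 of 108 Ccl7 UMIs, 34 of 39 Cxcl1 UMIs and 83 of 109 Prg4 UMIs, with 78 of Gsn and 110 of Clec3b. In the summed cells Ccl2 had log2 ratios of -0.08 and -0.82, while 53 of the 58 uninjured cells held no Ccl2 UMI.

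**Figure D4:**
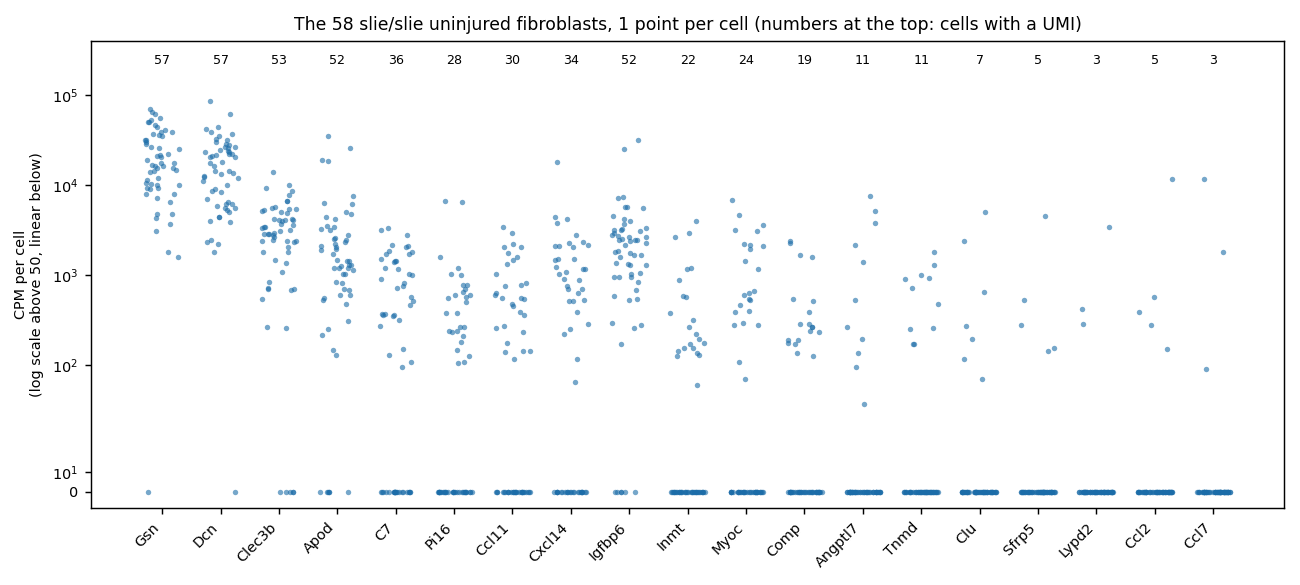
CPM per cell (vertical axis, logarithmic above 50 and linear below) of 19 genes in the 58 slie/slie uninjured fibroblasts, 1 point per cell, with the number of cells that hold a UMI above each column. Gsn, Dcn, Clec3b, Apod and Igfbp6 are present in more than 50 cells, and Sfrp5, Lypd2, Ccl2 and Ccl7 in 5 or fewer.

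The 6 control uninjured cells were uneven. The deepest, of 10162 UMIs, held 118 UMIs of Gsn, 474 of Dcn, 496 of Apod and 13 of Pdgfra and none of C7 or Dpt. The next, of 3947 UMIs, held 315 UMIs of Col1a1 and none of Gsn, Clec3b or Pdgfra. A cell of 984 UMIs held all 6 markers, and the other 3 cells held between 0 and 5 UMIs of Dcn. The summed control values above thus rest on 3 cells, which held 89.3% of the UMIs.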

How the data were processed

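Single-cell RNA was measured in 4 libraries of mouse hindlimb, 1 per group. The values deposited by the authors are raw counts of UMIs for 27998 genes in each barcode. Per the file headers they come from Cell Ranger 5.0.1, and mm10 is named per the submitters' processing notes. How barcodes were called is not stated there. All values are whole numbers.

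Cells and fibroblasts were chosen by the rule that opens the report. Counts were summed over the fibroblasts of a library and scaled to CPM. Log2 ratios and fold values had 1 count added to each sum, and the exact binomial 95% intervals are of the ratio without it. CPM intervals are exact Poisson, shares exact Clopper-Pearson. UMIs are counted, so intervals cover counting error, not mice. With 1 library per group there is no test. A gene counted as measured from 20 UMIs over both sums, and as called from 2-fold. Where a sum was 0 the bound used 3 counts per summed library, and limits on shares of 0 use 3 counts too. The ratio code was tested on simulated data: 96.1% (4982 genes, slie/slie injured) and 96.6% (7970 genes, control injured) of intervals held the simulated ratio.

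The members and the 24 role lists and 18 lists of other cells were chosen with earlier results of these data known. Of 571 listed genes 565 were matched, 3 by an older symbol. Named genes were the label markers, rule genes and Ddr2. To these came list members with the most UMIs or the largest ratios, and 15 genes per direction. These 15 were ranked by the bound nearest 1 over the weaker reference, among genes with at least 30 UMIs in each comparison. Mitochondrial, ribosomal, hemoglobin, predicted, Y-linked, rule and other-cell genes were left out, as were Xist and Tsix. Genes named for their concentration in few cells were chosen after their values were seen. Coordinates came from GENCODE M21 (mm10), promoters from RefSeq (GRCm38.p6), where 26 of 35 named genes had one. Doublets were scored with Scrublet (scanpy 1.11.5) per library and kept. Tools were Python 3.11.15, numpy 2.4.6, scipy 1.17.1 and matplotlib 3.10.9. Alternatives changed the rule's limit, the filters, the weights of cells, the depth, the scaling, the minimum of UMIs and the fold limit.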

Additional observations from a re-analysis of the deposited data

Results flagged for a closer look

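Col1a1 and Col1a2 differed between limbs in opposite directions in the 2 genotypes. In slie/slie mice both were lower in uninjured than in injured fibroblasts (Col1a1 11761 against 24165 CPM, Col1a2 6062 against 10961 CPM). In control mice both were higher in the uninjured cells, at 37440 CPM against 27382 for Col1a1 and 22180 against 14967 for Col1a2. The Poisson intervals, which cover counting error only, were apart in each pair. Of the 633 Col1a1 UMIs of the 6 control uninjured cells, 289 and 315 came from 2 cells. The difference between genotypes was not tested. Both genes are part of the rule that chose the cells.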

How the results depend on the processing

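No paired analysis was possible because each group had 1 library. Of 70 called values of named genes over both references, 65 stayed past 2-fold in the same direction under every alternative tried and 68 kept their direction. The 15 genes per direction were picked in these data for their distance from no change, so this was largely set by that choice. Leaving out called doublets or cells rich in myofibre UMIs removed no cell (58, 76 and 202 left). The minimum of UMIs and the fold limit cannot change a gene's ratio. Of 24 called list medians 15 stayed past 2-fold and 22 kept their direction. At a limit of 5% for the rule genes 37 uninjured cells were left, and 447 genes were lower than in slie/slie injured cells. At that limit the log2 ratios over slie/slie injured cells were -0.35 for Pdgfra and -0.28 for Sfrp5. The Sfrp5 value comes from the added count, because the slie/slie injured cells held 0 Sfrp5 UMIs. With cells weighted equally 1241 genes were lower. Thinned to 500 UMIs, 65 genes were higher and 64 lower over slie/slie injured cells, and 120 and 190 over control injured cells, with fewer genes measured. There the medians were 0.37 for hyaluronan genes over slie/slie and -0.16 for small leucine-rich proteoglycans over control injured cells. With a minimum of 100 UMIs the counts were 162 and 179, and 249 and 455. Without a minimum they were 2417 and 2795 over slie/slie injured cells, and 3062 were higher over control injured cells. At 1.5-fold they were 1154 and 1344, and 1648 and 2454. Added after seeing the data were the limit of 2000 UMIs per cell and some removals of cells. These were the 4 cells with at least 2 UMIs of Sfrp5 or of Lypd2, each gene's 3 leading cells and 1 control injured cell. The control uninjured values rest on 16907 UMIs in 6 cells.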
